A study of Mus musculus with 2 samples.

Results

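Peaks of captured DNA modification were described at 7 genomic intervals around 9 developmental regulators: Gata2, Gata3, Gata4, Gata5 and Gata6, which encode GATA zinc finger factors, and Tbx2, Tbx3, Tbx4 and Tbx5, which encode T-box factors. The intervals were fixed coordinates of the mouse build mm9 that together spanned 1270 kb, and every peak that overlapped an interval by at least 1 bp was taken as a member. This gave 140 of 100871 peaks, 69 of 55292 in the control list and 71 of 45579 in the knockdown list. Both libraries came from E14 embryonic stem cells, a line of mouse pluripotent cells. The control culture was transfected with a short hairpin RNA against GFP (shGFP, 1 library) and the other with a hairpin against Dnmt3L (shDnmt3L, 1 library), a cofactor of Dnmt3a and Dnmt3b that has no enzyme activity of its own. The labels call the assay MeDIP, which captures 5-methylcytosine, whereas their protocol describes a glucosylation-based capture with the Hydroxymethyl Collector kit, which takes 5-hydroxymethylcytosine, so the peaks are called enrichment peaks without naming the modification. With 1 library a group there was no replicate error and no test, and each difference is one between these libraries.

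GATA factors bind the motif that gives them their name through paired zinc fingers. Gata2 and Gata3 are known for their roles in blood progenitors, T cells and trophoblast, and Gata4, Gata5 and Gata6 for roles in endoderm and heart. T-box factors share the DNA-binding domain of Brachyury: Tbx2 and Tbx3 act mainly as repressors, while Tbx5 and Tbx4 are known for forelimb with heart and for hindlimb development. Most of these genes, Tbx3 excepted, are little expressed in undifferentiated stem cells, and many have CpG-rich promoters, CpG being the dinucleotide that DNA methyltransferases modify. Tbx3 and Tbx5 are neighbours, as are Tbx2 and Tbx4, so each pair was read as 1 locus. In the RefSeq gene order of GRCm38, Gata2 lies between Rpn1 and Dnajb8, Gata3 between Celf2 and Taf3, Gata4 between Neil2 and Blk, Gata5 between Rbbp8nl and Slco4a1, and Gata6 between Mib1 and Rbbp8. Tbx2 and Tbx4 lie between Bcas3 and Brip1, and Tbx3 and Tbx5 between Med13l and Rbm19. No gene positions on mm9 were used here, so a peak is placed in an interval and not in a promoter, an exon or an intron.

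Promoter sequences were taken for 4 of the 9 genes, and the 250 bases before each start are printed to show how much CpG these 4 carry at their starts. They are RefSeq sequences on GRCm38.p6, written 5′ to 3′ on the strand of the gene, with each CG in capitals. This motif reads the same on both strands. GRCm38 positions cannot be compared with the mm9 peak positions, so whether these bases lay under a peak was not tested.
Gata2, distal start, chr6:88193641-88193890, plus strand: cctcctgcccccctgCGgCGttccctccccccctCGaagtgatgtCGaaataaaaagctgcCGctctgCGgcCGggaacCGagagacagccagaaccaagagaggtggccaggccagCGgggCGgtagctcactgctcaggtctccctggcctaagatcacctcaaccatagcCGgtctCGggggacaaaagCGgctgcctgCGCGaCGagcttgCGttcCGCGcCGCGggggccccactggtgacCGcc
Gata2, proximal start, chr6:88198414-88198663, plus strand: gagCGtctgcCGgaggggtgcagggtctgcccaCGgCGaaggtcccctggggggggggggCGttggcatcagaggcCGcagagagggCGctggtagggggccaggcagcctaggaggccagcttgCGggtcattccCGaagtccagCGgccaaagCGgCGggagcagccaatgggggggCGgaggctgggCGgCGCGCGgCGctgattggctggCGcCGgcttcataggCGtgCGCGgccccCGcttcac
Gata3, chr2:9878601-9878850, minus strand: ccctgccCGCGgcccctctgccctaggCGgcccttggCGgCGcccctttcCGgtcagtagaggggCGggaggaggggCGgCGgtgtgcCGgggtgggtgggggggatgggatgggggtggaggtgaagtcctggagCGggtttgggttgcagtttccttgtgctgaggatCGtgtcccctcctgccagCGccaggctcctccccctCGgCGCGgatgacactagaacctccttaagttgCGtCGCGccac
Gata5, chr2:180334680-180334929, minus strand: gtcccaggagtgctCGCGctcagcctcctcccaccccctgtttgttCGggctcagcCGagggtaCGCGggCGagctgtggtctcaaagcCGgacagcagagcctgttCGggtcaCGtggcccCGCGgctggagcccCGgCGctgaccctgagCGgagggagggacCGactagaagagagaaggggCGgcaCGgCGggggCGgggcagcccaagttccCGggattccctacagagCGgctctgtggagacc
Tbx4, chr11:85896515-85896764, plus strand: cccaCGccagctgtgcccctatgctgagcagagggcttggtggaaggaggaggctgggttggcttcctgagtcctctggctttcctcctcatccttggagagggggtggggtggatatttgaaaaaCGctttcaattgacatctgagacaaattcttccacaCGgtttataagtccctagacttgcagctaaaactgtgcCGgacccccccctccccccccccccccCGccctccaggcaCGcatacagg
The 2 Gata2 starts had 22 and 24 CG in 250 bases, Gata3 had 19, Gata5 had 22 and Tbx4 had 6. Among 32851 promoter windows of the same length the median was 6 CG, and 92.1% had at least 1. At least as many CG as at the Gata2 starts were found in 14.8% and 12.0% of windows, as at Gata3 in 19.7%, as at Gata5 in 14.8% and as at Tbx4 in 50.4%. The Gata2, Gata3 and Gata5 starts were thus among the CpG-rich windows and the Tbx4 start was at the median.

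Every one of the 7 loci had more length under peaks in the shDnmt3L library than in the shGFP library, and each held at least 1 wide peak, of 5 kb or more, that had no shGFP counterpart. Such a peak was present in 6.26% of the 8534 tiles of 100 kb across the genome that held a shDnmt3L peak and at least 5 kb under peaks of either list. The intervals, of 110 to 350 kb, were longer than these tiles and so had more room for such a peak. Over the 1270 kb, shGFP peaks covered 145 kb and shDnmt3L peaks 274 kb, a 1.89-fold difference, against 1.05-fold over the whole lists. The median fold was 1.03 over 8581 tiles of 100 kb with at least 5 kb under peaks of either list. How many tiles had simply more length in shDnmt3L was not counted. Leaving out each locus in turn gave folds between 1.75, without Tbx2 and Tbx4, and 2.36, without Tbx3 and Tbx5. Length under both lists came to 122 kb, which was 84.2% of the shGFP length, and 77.3% was kept over the whole lists. The control signal was therefore mostly still called, and 151 kb were under shDnmt3L peaks only while 22.9 kb were under shGFP peaks only. DNA came from whole cultures, with 1 library each and unknown depth. A modification in more cells, more of it per cell and a difference in depth or peak calling between the libraries cannot be told apart.

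**Figure D1:**
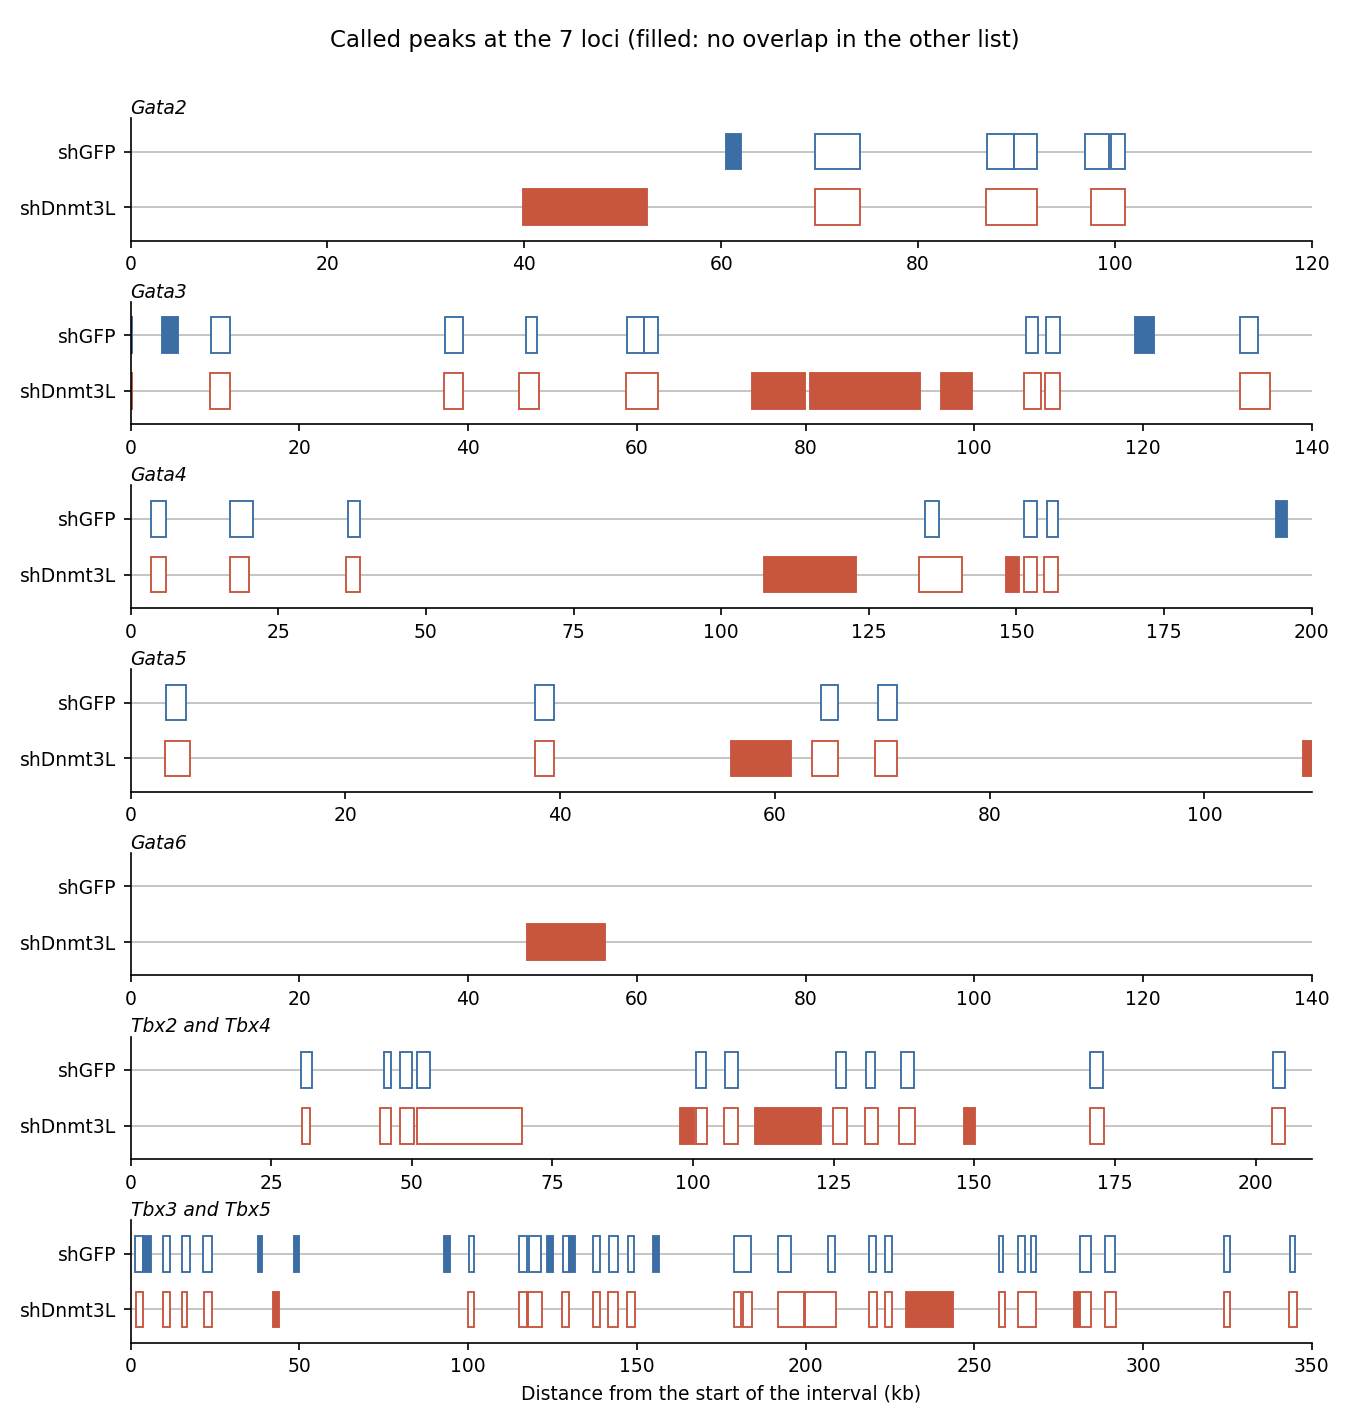
Called peaks in each interval, as distance in kb from the start of the interval; the upper row of each panel is the shGFP library, the lower row the shDnmt3L library, and filled boxes have no overlap in the other list. Filled shDnmt3L boxes of 5 kb or more are present in all 7 panels, filled shGFP boxes are narrow, and the Gata6 panel has a single box; at Tbx3 and Tbx5 the filled stretch near 230 kb is 2 peaks 15 bp apart.

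At Gata2, on chromosome 6 from 88.10 to 88.22 Mb, 6 shGFP peaks covered 14.95 kb and 4 shDnmt3L peaks 25.85 kb, a 1.73-fold difference. The widest shDnmt3L peak, from 88139841 to 88152478, was 12638 bp wide, and the nearest shGFP peak was 8040 bp away. Its score was higher than 99.4% of its list (rank 292 of 45579), a score being the peak caller's value for a peak and a percentile the share of the same list with a lower score. The highest shGFP peak of the locus, 4571 bp from 88169498 to 88174068 at the 94.9th percentile of its list, was matched by a shDnmt3L peak of 4596 bp, 25 bp longer. From 88186911 to 88192111, 1 shDnmt3L peak of 5201 bp lay over 2 adjacent shGFP peaks that covered 97.7% of it. The locus thus combined a new wide peak with a group of peaks at higher coordinates that was called in both lists, and 1 weak shGFP peak of 1511 bp, at the 28.8th percentile, had no partner.

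At Gata3, on chromosome 2 from 9.72 to 9.86 Mb, 11 peaks in each list covered 18.8 kb in shGFP and 41.1 kb in shDnmt3L, a 2.19-fold difference. The number of peaks was equal because 3 shDnmt3L peaks without a partner stood against 2 such shGFP peaks and a pair of shGFP peaks under a single shDnmt3L peak. The 3 formed a stretch from 9793653 to 9819771, 26.1 kb long, with gaps of 644 and 2541 bp and no shGFP peak inside. They were 6262, 12993 and 3679 bp wide, at the 94.3rd, 98.6th and 72.0th percentile of their list. Outside the stretch 7 pairs of peaks matched one to one, with the shDnmt3L peak between 23 bp narrower and 1487 bp wider. The widest gains were from 1226 to 2392 bp (1.95-fold) and from 2098 to 3585 bp (1.71-fold). The shGFP peaks of this locus were between 1226 and 2260 bp wide. The 2 without a partner had scores of 61.6 and 54.5, near the minimum of the list.

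Gata4, which opens chromatin in endoderm and heart, had the widest peak of the GATA loci. On chromosome 14 from 63.75 to 63.95 Mb, 7 shGFP peaks covered 16.6 kb and 8 shDnmt3L peaks 37.8 kb, a 2.28-fold difference. A shDnmt3L peak from 63857347 to 63872763 was 15417 bp wide, at the 99.2nd percentile of its list, and the nearest shGFP peak was 11753 bp away. It was rank 58 of 45579 by width. The next shDnmt3L peak, from 63883523 to 63890801, was 7279 bp wide where the shGFP list had a peak of 2402 bp, and it gained 994 bp at its start and 3883 bp at its end. In contrast, the pair at 63766797 was narrower in shDnmt3L, with 3323 bp against 3896 bp. The change at Gata4 was therefore not an even widening of each peak.

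At Gata5, on chromosome 2 from 180.01 to 180.12 Mb, 4 shGFP peaks covered 6.94 kb and 6 shDnmt3L peaks 14.95 kb, a 2.16-fold difference. All 4 shGFP peaks lay wholly under shDnmt3L peaks. A shDnmt3L peak without a partner, 5543 bp from 180065922 to 180071464, sat 2783 bp before the strongest shGFP peak of the locus. That shGFP peak, 1594 bp from 180074248 to 180075841, was at the 91.8th percentile of its list. The second shDnmt3L peak without a partner, 5266 bp from 180119195 to 180124460, crossed the end of the interval and ran 4460 bp past it. Neither reached 10 kb, and the highest percentile of any shDnmt3L peak at Gata5, 89.2, was the lowest such value among the 7 loci.

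Gata6, which acts with Gata4 in primitive endoderm, was the only 1 of the 7 loci with no shGFP peak. In the 140 kb on chromosome 18 from 11 to 11.14 Mb the shDnmt3L list had 1 peak, of 9278 bp from 11046964 to 11056241, at the 97.5th percentile. The nearest shGFP peak was 64843 bp away. The control list thus gave no length to set against the 9.28 kb, and no fold was computed. Both lists were sparse around the interval too: the flank of 140 kb before it held 2 shGFP peaks and no shDnmt3L peak, and the flank after it 1 peak of each.

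The locus of Tbx2 and Tbx4, on chromosome 11 from 85.59 to 85.80 Mb, showed the largest difference among the loci with control peaks. Its 11 shGFP peaks covered 21.65 kb and its 14 shDnmt3L peaks 57.3 kb, a 2.65-fold difference, and 97.7% of the shGFP length was also under shDnmt3L peaks. The widest peak of all 140 was here, a shDnmt3L peak of 18697 bp from 85640856 to 85659552, at the 99.8th percentile and rank 33 of 45579 by width. Unlike the widest peaks of the GATA loci it had a control partner at its left end. The shGFP peak, 2286 bp from 85640856 to 85643141 with a low score of 61.3, started on the same base, and the shDnmt3L peak ran 16411 bp further. Only 12.2% of it lay under a shGFP peak. A second shDnmt3L peak, 11744 bp from 85701047 to 85712790 at the 97.7th percentile, had no partner, with the nearest shGFP peak 2659 bp away. All 11 shGFP peaks had a partner, among them the strongest, 2363 bp from 85726986 to 85729348, which was matched by 2865 bp.

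The locus of Tbx3 and Tbx5, on chromosome 5 from 120.05 to 120.40 Mb, was the most densely covered in the control and had the smallest fold. Its 30 shGFP peaks covered 66.25 kb and its 27 shDnmt3L peaks 87.4 kb, a 1.32-fold difference. The added length lay mainly in the middle of the interval. From 120241816 to 120259077, 2 shDnmt3L peaks of 7620 and 9388 bp with a gap of 254 bp filled 17.3 kb, of which 35.4% lay under shGFP peaks. The first shared its start with a shGFP peak of 3951 bp and ran 3669 bp further, and the second ended 247 bp beyond a shGFP peak of 2163 bp and began 6978 bp before it. The control peaks thus sat at the outer ends and the space between them was called in shDnmt3L. Further along the interval, 2 shDnmt3L peaks of 4338 and 9673 bp, 15 bp apart, filled 14.03 kb from 120279672 to 120293697 with no shGFP peak. A shDnmt3L peak of 5305 bp from 120313138 to 120318442 joined 2 shGFP peaks. The reverse was also found: the widest shGFP peak of the locus, 4841 bp from 120228937 to 120233777, overlapped 2 shDnmt3L peaks of 2019 and 2497 bp. Elsewhere in the interval the strongest shGFP peak, 2623 bp from 120191672 to 120194294 at the 97.8th percentile, was matched by 2619 bp. Of the 30 shGFP peaks of this locus 7 had no partner (23.3%), against 25.5% of the whole list.

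**Figure D2:**
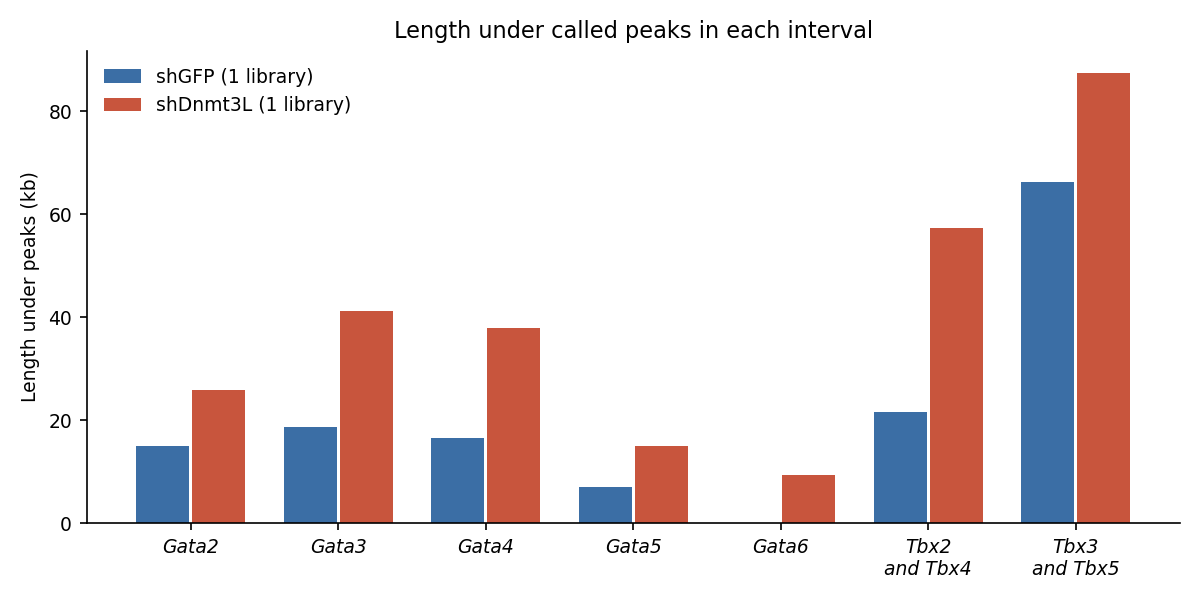
Length under called peaks in kb in each interval, with 1 bar for each library and no error bars since each group has 1 library. The shDnmt3L bar is higher at all 7 loci, from 9.28 kb against no shGFP peak at Gata6 to 87.4 kb against 66.25 kb at Tbx3 and Tbx5.

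Covered length was at least 2-fold higher in shDnmt3L at 5 of the 7 loci, Gata6 included, and at least 2-fold higher in shGFP at 0 of them. Among 8581 tiles of 100 kb across the lists that had at least 5 kb covered in either library, 8.15% passed the same fold toward shDnmt3L and 5.59% toward shGFP. With 50 kb added to each end of the intervals, 2 of the 7 loci passed it, and the fold over all loci was 1.56. Flanks of equal length on either side of each interval gave the local comparison. The 14 flanks together had 323 kb under shGFP peaks and 318 kb under shDnmt3L peaks, a fold of 0.984. Of these flanks 5 had more length in shDnmt3L, 0 passed 2-fold toward shDnmt3L and 4 passed it toward shGFP. The summed lengths of the libraries were thus close to each other in the flanks. Most of each sum came from the flanks of Tbx3 and Tbx5, with 116 and 76.6 kb in shGFP and 126 and 82.9 kb in shDnmt3L. The intervals had been chosen with results of these lists known.

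**Figure D3:**
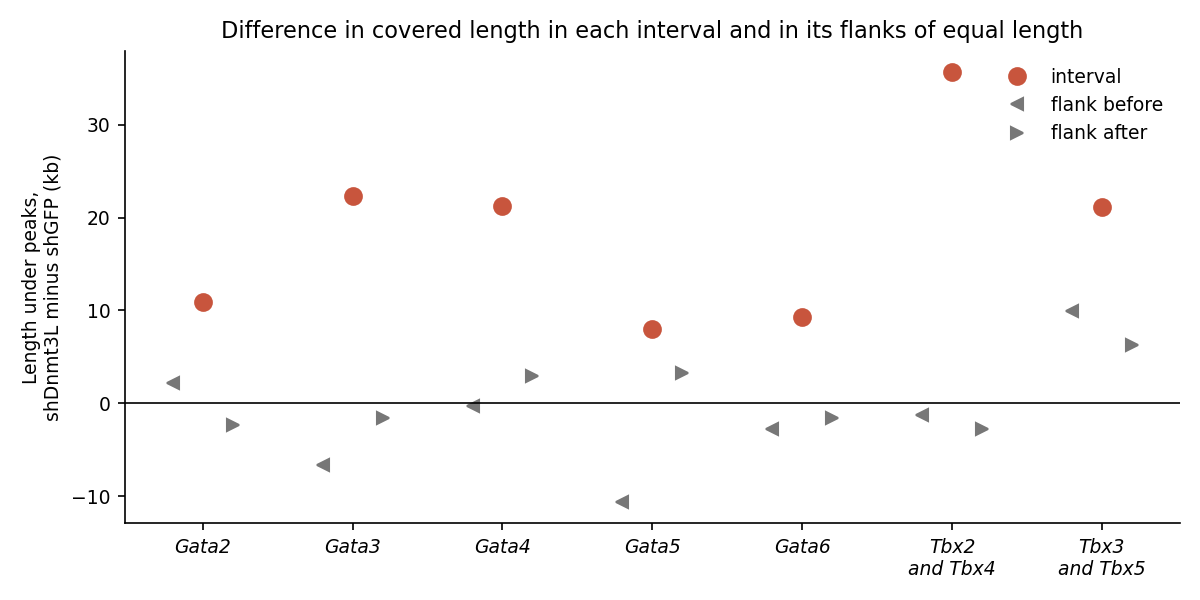
Difference in length under peaks, shDnmt3L minus shGFP in kb, in each interval (circles) and in the flanks of equal length before (left-pointing triangles) and after it (right-pointing triangles). All 7 circles lie above 0, and each lies above both of its flanks.

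Wide peaks made up most of the added length. The widest shGFP peak at the loci was 4841 bp, so none reached 5 kb (0 of 69, which allows a share of up to 4.35%). Of the whole shGFP list 1.34% did. In shDnmt3L 15 of 71 peaks did (21.1%, Wilson 95% interval 13.2 to 32.0%), against 5.18% of the whole list, and they were spread over all 7 loci with 1 at Gata6, 4 at Tbx3 and Tbx5 and 2 at each of the others. Of these 15, 9 had no shGFP partner (12.7% of the 71, interval 6.82 to 22.4%), against 1.23% of the list. The 9 were 1.604% of all 561 such peaks in the list. At 10 kb or more there were 5 shDnmt3L peaks, against 0.535% of the list, and they lay at Gata2, Gata3, Gata4 and, with 2, at Tbx2 and Tbx4. All but the widest of them, 4 in number, had no shGFP partner, against 0.228% of the list. The Wilson intervals cover the counting error alone and assume that neighbouring peaks are independent.

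Of the 151 kb under shDnmt3L peaks only, 84.35 kb (55.7%) belonged to the 9 wide peaks without a partner and 34.2 kb (22.6%) to the 6 wide peaks that overlapped a shGFP peak. Narrower peaks without a partner, 7 in number, held 12.0% and the 49 narrower shared peaks 9.71%. Over the whole list the order was different: wide peaks without a partner held 13.3% of the length under shDnmt3L only, and narrower ones 40.4%. At the GATA and T-box loci the added length was thus held by few peaks.

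**Figure D4:**
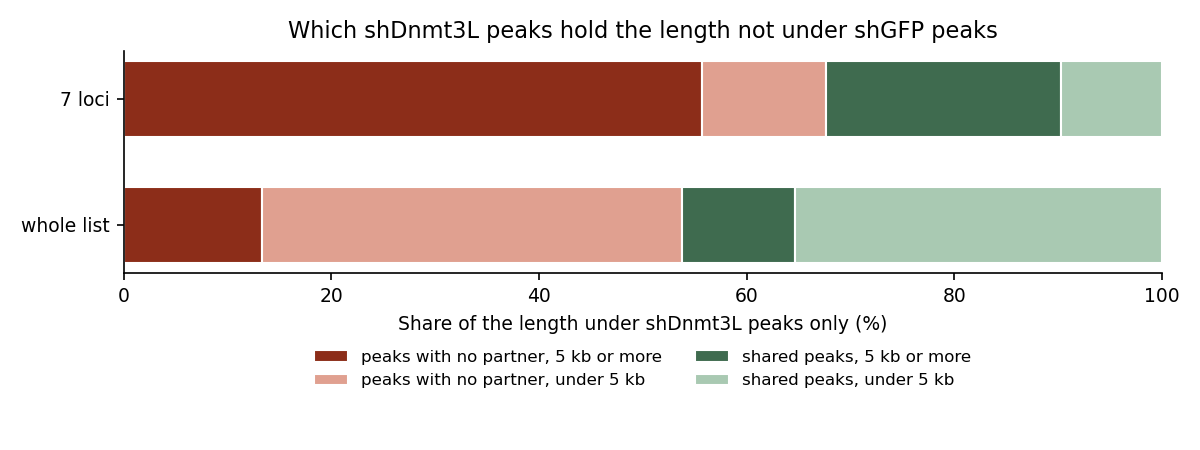
Share, in percent, of the length under shDnmt3L peaks only that belongs to each of 4 kinds of shDnmt3L peak, at the 7 loci and over the whole list. Wide peaks without a shGFP partner hold 55.7% at the loci and 13.3% over the list.

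Shared peaks of the loci were mostly wider in shDnmt3L, by a share close to that of the whole lists. Among 49 pairs that matched one to one, 39 were wider in shDnmt3L (79.6%, Wilson 95% interval 66.4 to 88.5%), against 81.7% over the whole lists. At the loci the shDnmt3L peak exceeded its partner by a median of 228 bp, with quartiles of 32 and 599 bp, and over the lists by 145 bp. At least 2-fold wider were 3 of the 49 pairs (6.12%), against 2.94% over the lists: the 18697 bp peak at Tbx2 and Tbx4 (8.18-fold), the 9388 bp peak at Tbx3 and Tbx5 (4.34-fold) and the 7279 bp peak at Gata4 (3.03-fold). Within the shDnmt3L list these 3 peaks were at the 99.8th, 98.8th and 94.2nd percentile by score.

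Unshared peaks were found in both lists. At the loci 16 of 71 shDnmt3L peaks had no shGFP partner (22.5%, Wilson 95% interval 14.4 to 33.5%), against 12.6% of the whole list. In shGFP 11 of 69 had none (15.9%, interval 9.14 to 26.3%), against 25.5% of the whole list, which lies within that interval. The 11 shGFP peaks were between 1314 and 2260 bp wide with scores between 50.85 and 71.9, and the highest was at the 30.8th percentile of its list. The 16 shDnmt3L peaks had widths between 1593 and 15417 bp with a median of 5404 bp. Their median percentile within the shDnmt3L list was 85.9, and the 9 of 5 kb or more lay between the 75.9th and the 99.4th. For all 561 such peaks of the list the median percentile was 93.1. Wide peaks tend to score high, so rank and width are not separate measures, and a percentile describes a peak within its own list only.

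**Figure D5:**
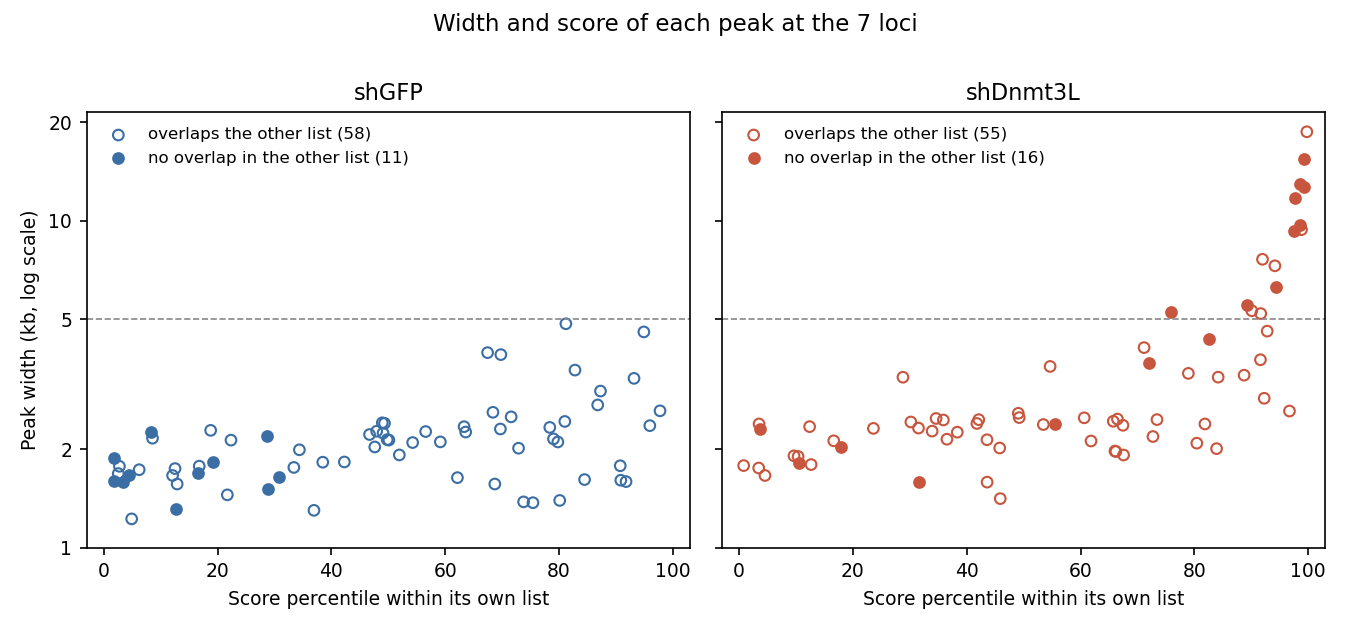
Width in kb (log axis) against the score percentile in its own list for each of the 69 shGFP and 71 shDnmt3L peaks at the loci; filled points have no overlap in the other list and the dashed line marks 5 kb. Filled shGFP points all lie at or below the 30.8th percentile, whereas the shDnmt3L panel has 15 points above the line, 9 of them filled.

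In shDnmt3L the highest-scoring peak had no shGFP partner at Gata2, Gata3, Gata4, Gata5 and Gata6, which makes 5 of the 7 loci, and the widest had none at 6. Among the 8534 tiles of 100 kb with a shDnmt3L peak, shorter than the intervals, these shares were 9.51% and 15.7%. At Tbx2 and Tbx4 and at Tbx3 and Tbx5 the highest-scoring peak overlapped a shGFP peak over 12.2% and 23.0% of its length. In shGFP the highest-scoring peak had a shDnmt3L partner at all 6 loci that had peaks. The share of tiles for this was not computed. In the whole shGFP list 25.5% of peaks had no partner, and they scored low, with a median percentile of 17.8 against 62.5 for shared peaks. The shGFP peaks under the highest-scoring shDnmt3L peaks of the T-box loci were weak, with scores of 61.3 and 54.6. Both T-box loci also held a wide shDnmt3L peak without a partner, at a percentile nearly as high as that of the highest-scoring peak. It was 11744 bp at the 97.7th percentile at Tbx2 and Tbx4, and 9673 bp at the 98.6th at Tbx3 and Tbx5. Gata4 in turn held a 7279 bp peak over a control peak, though it was not the highest-scoring peak of its locus. Wide shDnmt3L peaks with and without a shGFP partner were thus found in both gene families.

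The edges of the intervals decided few members. At Gata3 the first peak of each list began 1999 bp before the interval, and at Gata5 the last shDnmt3L peak crossed its end. The other members lay wholly inside. Just outside, the nearest peaks were a shDnmt3L peak of 2225 bp that ended 567 bp before the interval of Tbx3 and Tbx5 and its shGFP partner of 1771 bp, which ended 660 bp before it. A shDnmt3L peak of 7018 bp, from 63957232 to 63964249, began 7231 bp after the interval of Gata4, at the 95.02nd percentile of its list, and lay over 2 shGFP peaks.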

How the data were processed

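Each library had 1 deposited peak list, in which the authors' peak caller gave every peak a score. Per the submitters' processing notes, CASAVA 1.8, Bowtie 0.12.7, MACS 1.4.1 and mm9 were used; the sources used here give no roles, input control or duplicate treatment. The depth of sequencing is unknown, which can shift how many peaks were called and how wide. The lowest scores were 50.01 in shGFP and 50.00 in shDnmt3L. Dnmt3L itself was not analysed here.

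Overlaps were computed in Python 3.11.15 (numpy 2.4.6, scipy 1.17.1). Sharing meant an overlap of at least 1 bp with the other list. Covered length was clipped to the interval. Joined stretches allowed gaps under 3 kb. The code was tested on simulated data. The plan was to name the widest and highest-scoring peak of each interval and list, and peaks of 5 kb or more. It also took in the highest-scoring peak without a partner and peaks at the edges. Not all of these are named in the text, and other named peaks were chosen after their values were seen. The intervals and lists were chosen with earlier results of these data known. Planned values for other pathway genes were not made, as no mm9 annotation was used. Alternatives covered the score minimum, list length, merging, overlap and interval ends.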

Additional observations from a re-analysis of the deposited data

How the results depend on the processing

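Covered length kept its direction at each locus with shGFP peaks in all 36 values computed for single loci under the alternatives, with folds between 1.25 and 6.18, and over all 7 loci the fold stayed above 1. Of 84 alternative values, 73 stayed within 1.5 times the reported value or, for shares, within its Wilson interval, and 11 moved. With scores of 100 or more, 39.0% of shDnmt3L peaks at the loci had no partner and 17.4% of tiles passed 2-fold. With lists of equal length, 33.8% of shDnmt3L and 7.55% of shGFP peaks had no partner. Asking for 50% overlap of both peaks left 29.0% of shGFP peaks at the loci without a partner. In that setting the shDnmt3L share was 31.0%, which stayed within its interval. Shares of peaks without a partner over the whole lists were not computed under these settings. A trait of the loci and an effect of the setting therefore cannot be told apart in these shares. With 50 kb added at each end, 2 loci passed 2-fold. Tiles of 50 and 200 kb gave 11.1% and 5.59%. The remaining moved values were single-locus folds: 6.18 at Gata3 and 4.79 at Tbx2 and Tbx4 with scores of 100 or more, and 3.55 at Gata4 with intervals narrowed by 20 kb. For these values the cause was not tested. With peaks of 5 kb or more alone, shGFP covered 0 kb and shDnmt3L 138 kb, so no fold could be computed. The widest shGFP peak at the loci, of 4841 bp, fell just short of this width, and no other minimum width was tried for covered length. Leaving out each locus was added after the data were seen. No paired analysis was possible because there is 1 library in each group. Sequencing depth is unknown, and it limits which weak peaks could be called in either list.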
